A study of Mus musculus with 6 samples.

Results

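The genes examined here load fatty acids onto membrane phospholipids and set which fatty acids are available for it. They were 10 of the 54532 genes in the deposited table, chosen by symbol: the acyl-CoA synthetases Acsl1, Acsl3, Acsl4 and Acsl5, the lysophospholipid acyltransferases Lpcat3, Mboat1 and Mboat2, and the desaturases Fads1, Fads2 and Scd1. All 10 passed the filter on low values, which asked for 10 reads in 3 or more libraries and a sum of 15. Polyadenylated RNA was sequenced from cultured mouse granulosa cells, the follicle's somatic cells, all labelled as wild type and given under a cell line tag that names no line. The cells had been exposed in culture to cyclophosphamide, an alkylating drug that liver enzymes activate in the body, for 24 h at a dose the labels do not state (3 libraries), or left untreated (3 libraries). The label of the treated samples names an intraperitoneal injection, whereas the protocol has the drug added to adherent cells in culture. No strain or age is given. The series title concerns serine and ferroptosis, and none of the 6 libraries carries a serine label.

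Ferroptosis is an iron-dependent cell death in which polyunsaturated fatty acids in membrane phospholipids are peroxidised. A fatty acid must be activated to its acyl-CoA by a synthetase before an acyltransferase can place it in a lysophospholipid. ACSL4 and LPCAT3 act on polyunsaturated fatty acids and are known as drivers of ferroptosis, while MBOAT1, MBOAT2 and SCD1 supply or insert monounsaturated ones, which resist peroxidation, and are known as suppressors. FADS2 and FADS1 make long polyunsaturated fatty acids from dietary precursors.

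Depth was 16689902 to 17275338 reads in the cyclophosphamide libraries and 16458385 to 17607586 in the untreated ones. Correlations of log2 values across genes were 0.987 to 0.991 among cyclophosphamide libraries, 0.989 to 0.991 among untreated libraries and 0.899 to 0.910 between the groups. The granulosa genes Inha (905 ± 158 FPKM in cyclophosphamide and 1984 ± 95.8 in untreated libraries, SD, n = 3 each) and Foxl2 (23.9 ± 1.66 and 32.5 ± 1.75 in the same order) were well expressed. Fshr was low (1.11 ± 0.40 FPKM in cyclophosphamide and 2.54 ± 0.32 in untreated libraries). Amh held 22 reads in all cyclophosphamide libraries and 16 in all untreated ones, and the aromatase gene Cyp19a1 held 1 and 3, so these markers of growing follicles were near 0. FPKM are reads scaled to gene length and library size, and n is 3 per group throughout.

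Cyclophosphamide cells had less mRNA of the acyltransferases and desaturases and more of Acsl4. All 3 acyltransferase genes and all 3 desaturase genes fell, Acsl4 rose, and Acsl1, Acsl3 and Acsl5 did not pass the test (limma on log2(FPKM + 0.1), Benjamini-Hochberg adjusted p under 0.05 over 14885 genes). Thus 7 of 10 were called, beside 68.9% of all genes tested, so the number called is near the background. One direction at a time, 6 of 10 were lower, beside 35.8% of all genes, and 1 was higher, beside 33.1%. Of the 10, 4 were at least 2-fold lower, beside 16.6% of all genes. The median log2 fold change of the 10 was -0.78, beside -0.02 over all genes tested. Values did not overlap between the groups for 9 of the 10 genes, beside 73.1% of all genes, and Acsl1 was the exception. Of these 9, 7 were lower, beside 37.8% of all genes, and 2 were higher, beside 35.3%. In bulk RNA, fewer cells of a type and less RNA per cell cannot be told apart.

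**Figure D1:**
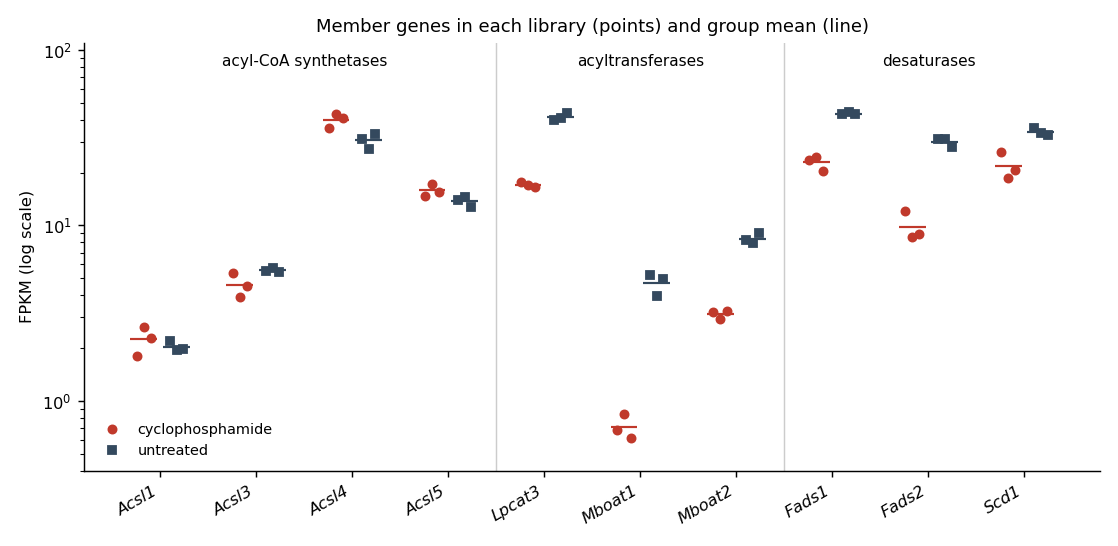
FPKM (log scale) of the 10 genes in each library, cyclophosphamide as circles left of untreated as squares, with a line at each group mean. The acyltransferases and desaturases sit lower in all 3 cyclophosphamide libraries, and Mboat1 shows the widest gap (0.71 against 4.72 FPKM).

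The order of the levels differed between the groups. In cyclophosphamide libraries Acsl4 was the highest of the 10 (40.0 FPKM), clear of Fads1 (22.9 FPKM) and Scd1 (21.9 FPKM), whose ranges overlapped. Lpcat3 (17.1 FPKM) and Acsl5 (15.8 FPKM) came next and also overlapped, and Mboat1 was the lowest (0.71 FPKM). In untreated libraries Fads1 (43.4 FPKM) and Lpcat3 (41.6 FPKM) were the highest and overlapped, followed by Scd1 (34.1 FPKM), Acsl4 (30.6 FPKM) and Fads2 (30.03 FPKM), each overlapping the next. Acsl1 was the lowest there (2.04 FPKM). The FPKM of Fads2 rest on a gene length of 1508 bases in the deposited table, against 3295 bases of exon in GENCODE M21, and those of Fads1 on 3456 against 4812, so their levels against the other genes depend on the gene model. Whether their changes between groups depend on it was not tested.

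Among the acyl-CoA synthetases, the change was small and differed between genes. Acsl4, which prefers arachidonic and adrenic acid, had 36.0, 42.9 and 41.2 FPKM in cyclophosphamide replicates 1 to 3, against 31.2, 27.4 and 33.3 FPKM in untreated replicates 1 to 3. Each cyclophosphamide library lay above each untreated one. Its log2 fold change was 0.39 ± 0.10 (SE), a ratio of means of 1.31 (limma, adjusted p = 0.0071). Acsl5, a synthetase of mitochondria and endoplasmic reticulum, had 14.8, 17.1 and 15.5 FPKM in cyclophosphamide libraries, against 13.9, 14.6 and 12.7 FPKM in untreated ones. Its groups did not overlap, and its log2 fold change of 0.20 ± 0.08 missed the threshold (limma, adjusted p = 0.057). The scaling between libraries moved it both ways: it passed with scaling to total reads (0.25), by the median of ratios (0.23) and by the upper quartile of all genes with a read (0.30), and had 0.12 with the upper quartile of the genes tested (limma, adjusted p = 0.245). It also passed in limma-voom (0.23) and without cyclophosphamide replicate 1 or untreated replicate 2 (0.25 each).

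Acsl3, a synthetase of lipid droplets and endoplasmic reticulum that activates monounsaturated fatty acids, had 5.35, 3.92 and 4.53 FPKM in cyclophosphamide libraries, against 5.50, 5.76 and 5.40 FPKM in untreated ones. Its groups were separate by a narrow margin, and its log2 fold change was -0.28 ± 0.12 (limma, adjusted p = 0.073). It passed the threshold without cyclophosphamide replicate 1 (-0.39, limma, adjusted p = 0.011) and with scaling by the upper quartile of the genes tested (-0.36, limma, adjusted p = 0.026). Acsl1, a main synthetase of heart, liver and fat, had 1.81, 2.65 and 2.28 FPKM in cyclophosphamide libraries, against 2.19, 1.95 and 1.97 FPKM in untreated ones. The groups overlapped, and the 95% interval of its log2 fold change (0.12) ran from -0.25 to 0.49. Acsl6, which is no member of the 10, held 0 reads in cyclophosphamide and 18 in untreated libraries.

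Acsl4 took the largest part of the family in every library. It made up 62.1%, 64.4% and 64.8% of the summed FPKM of Acsl1, Acsl3, Acsl4, Acsl5 and Acsl6 in cyclophosphamide libraries, against 59.0%, 55.1% and 62.3% in untreated ones. These shares overlapped between the groups. The share of Acsl3 was 9.24%, 5.88% and 7.13% in cyclophosphamide libraries, against 10.4%, 11.6% and 10.1% in untreated ones, with no overlap. The summed FPKM of the family was 62.7 ± 4.40 in cyclophosphamide and 52.0 ± 1.96 in untreated libraries (SD).

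**Figure D2:**
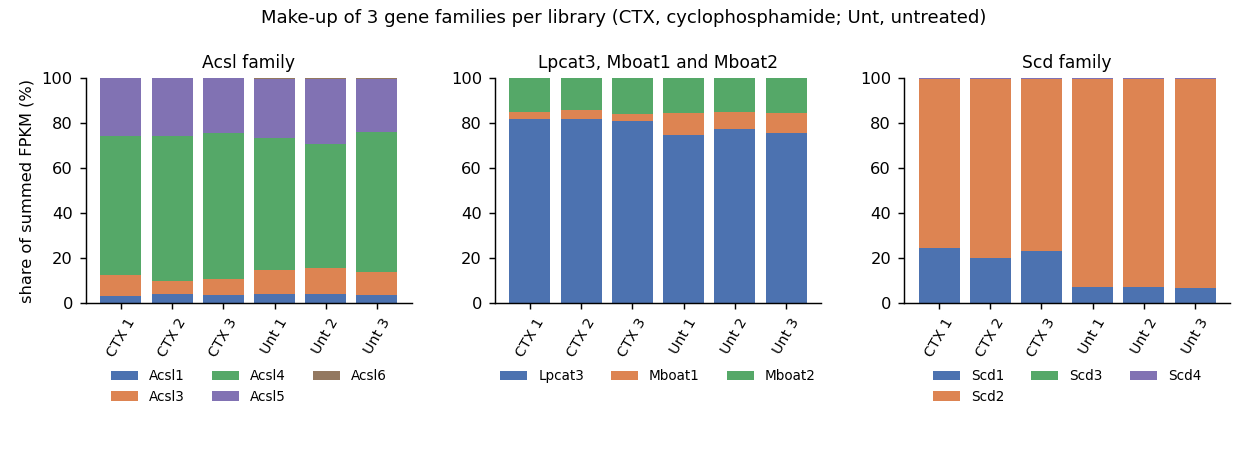
Share of the summed FPKM (%) that each gene held in its family, per library, with the cyclophosphamide libraries (CTX) left of the untreated ones (Unt). Acsl4 is the largest part of the Acsl family in every library, Mboat1 holds a mean of 3.40% in cyclophosphamide and 8.62% in untreated libraries, and Scd1 holds 22.7% and 7.11% of the Scd sum in the same order.

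Each of the 3 acyltransferase genes fell by more than 2-fold. Lpcat3, which places polyunsaturated fatty acids in phosphatidylcholine and phosphatidylethanolamine, had 17.7, 17.1 and 16.6 FPKM in cyclophosphamide libraries, against 39.9, 41.0 and 43.9 FPKM in untreated ones. The libraries of each group lay close together and far from the other group, and the mean was 58.9% lower with the drug. Its log2 fold change was -1.28 ± 0.06 (limma, adjusted p = 2.1e-06). Mboat1, which in human cells places monounsaturated fatty acids in phosphatidylethanolamine, had 0.68, 0.84 and 0.62 FPKM in cyclophosphamide libraries, against 5.22, 3.98 and 4.96 FPKM in untreated ones. These values rest on 135 reads in cyclophosphamide and 873 in untreated libraries, and the mean was 84.9% lower with the drug. The log2 fold change of Mboat1 was -2.57 ± 0.16 (limma, adjusted p = 6.2e-06), and only 1.8% of all genes tested had a value as low or lower. With a pseudocount of 1 in place of 0.1 it was -1.74.

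Mboat2, which shares that role with Mboat1, had 3.23, 2.95 and 3.26 FPKM in cyclophosphamide libraries, against 8.27, 7.98 and 8.998 FPKM in untreated ones. All 3 cyclophosphamide values lay under the lowest untreated one, with a mean 62.7% lower. Its log2 fold change was -1.39 ± 0.09 (limma, adjusted p = 7.3e-06). Together, the FPKM of the 3 genes summed to 20.96 ± 0.55 in cyclophosphamide and 54.7 ± 2.69 in untreated libraries (SD). Lpcat3 held 81.6% ± 0.46 of that sum in cyclophosphamide and 76.0% ± 1.35 in untreated libraries, and the share of Mboat1 was 3.40% ± 0.55 and 8.62% ± 1.13 in the same order. The summed FPKM of smooth muscle markers (Acta2, Tagln, Myh11, Des, Pdgfrb and Rgs5) was also lower, 6.76 to 19.2 in cyclophosphamide and 81.2 to 91.9 in untreated libraries. Most of that sum was Acta2 (means of 9.64 and 84.6 FPKM in the same order), and each other marker had a mean of at most 1.48 FPKM. Of 5 tested, 3 were lower and 1, Pdgfrb, was higher, beside 35.8% and 33.1% of all genes, and Rgs5 held 1 read in all. The summed FPKM of 6 surface epithelium markers was 49.96 to 73.2 in cyclophosphamide and 106 to 120 in untreated libraries. It was mostly Krt8 (23.0 and 51.1 FPKM) and Krt18 (35.7 and 60.7 FPKM), and each other marker had a mean of at most 0.89 FPKM. Of 5 tested, 4 were lower, beside 35.8% of all genes. Among these 4, Upk3b and Krt19 passed the filter on low values only through their reads in the untreated libraries, which tilts the count towards lower. Of the granulosa markers, 8 of 9 tested were lower and 1 higher, beside 35.8% and 33.1% of all genes. Their summed FPKM was 1098 to 1407 in cyclophosphamide and 2802 to 2976 in untreated libraries. Theca and stroma markers summed to 16.0 to 17.6 FPKM in cyclophosphamide and 29.7 to 35.2 in untreated libraries. Of 5 tested, 2 were lower, Col1a1 (-1.96 ± 0.15) and Col3a1 (-1.75 ± 0.11), and 1 was higher. Beside 35.8% and 33.1% of all genes, the number lower is near the background. Oocyte markers summed to 2.47 to 4.07 FPKM in cyclophosphamide and 0.68 to 0.88 in untreated libraries. Of 2 tested, 1 was higher, Gdf9 (2.32 ± 0.15), beside 33.1% of all genes. Zp1, Zp2, Zp3, Bmp15 and Oosp1 held 15 reads or fewer each over all 6 libraries. The part of these cell types in the fall of the acyltransferase and desaturase genes was not tested.

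**Figure D3:**
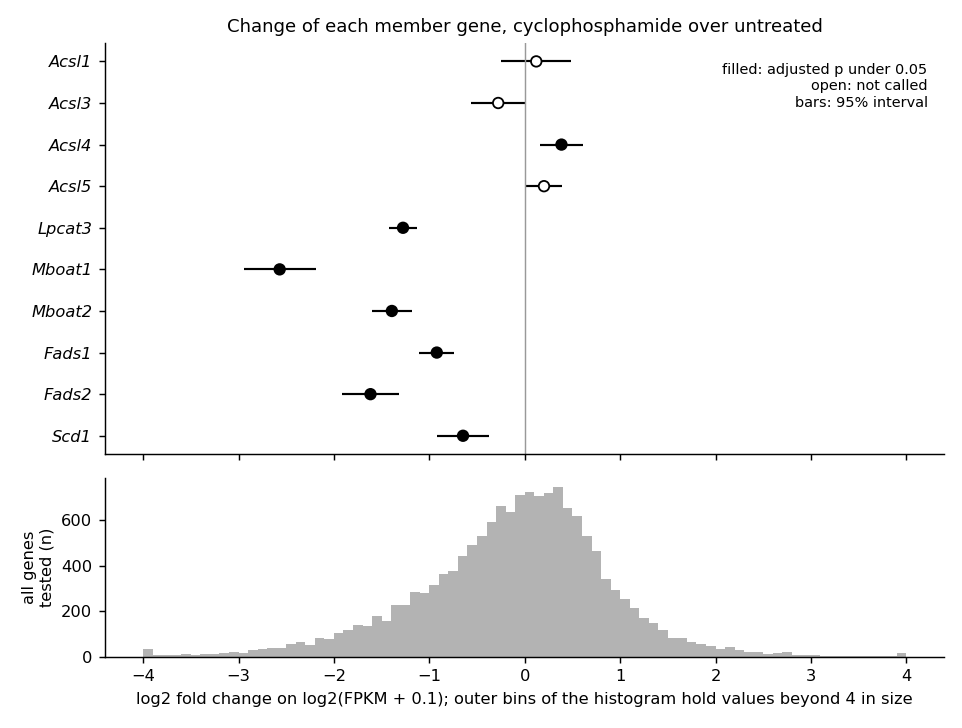
Log2 fold change of each gene (cyclophosphamide over untreated) with its 95% interval, filled where the adjusted p was under 0.05, above a histogram of the log2 fold changes of all genes tested. The 3 acyltransferases and 3 desaturases lie left of 0 and Acsl4 lies right of it.

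The promoters of the 3 acyltransferases are shown with that of Acsl4, the member that moved the other way, to set the genes that fell beside it. The sequences are RefSeq's on GRCm38.p6, from 250 bases before to 50 after the gene's start, and were found for 8 of the 10 genes, not for Fads1 and Scd1. Capitals mark the CCAAT box, the site of the factor NF-Y (letters CCAAT), and the GC box, the site of SP1 (letters GGGCGG), each on either strand, where neighbouring GC boxes can overlap.
Acsl4 (chrX:142390486-142390785, minus strand): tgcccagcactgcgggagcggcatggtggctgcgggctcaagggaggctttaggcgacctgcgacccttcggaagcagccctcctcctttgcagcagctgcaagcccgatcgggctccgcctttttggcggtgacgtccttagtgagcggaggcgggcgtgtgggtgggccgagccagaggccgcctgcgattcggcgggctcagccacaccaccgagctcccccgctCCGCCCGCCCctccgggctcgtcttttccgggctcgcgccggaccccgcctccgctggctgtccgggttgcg
Lpcat3 (chr6:124662854-124663153, plus strand): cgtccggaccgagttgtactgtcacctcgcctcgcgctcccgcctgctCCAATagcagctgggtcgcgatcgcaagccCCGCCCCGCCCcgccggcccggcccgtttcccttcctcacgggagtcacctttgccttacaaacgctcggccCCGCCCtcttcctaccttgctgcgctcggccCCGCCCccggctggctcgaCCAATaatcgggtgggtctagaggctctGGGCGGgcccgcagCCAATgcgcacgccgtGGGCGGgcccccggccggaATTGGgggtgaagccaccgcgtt
Mboat1 (chr13:30136240-30136539, plus strand): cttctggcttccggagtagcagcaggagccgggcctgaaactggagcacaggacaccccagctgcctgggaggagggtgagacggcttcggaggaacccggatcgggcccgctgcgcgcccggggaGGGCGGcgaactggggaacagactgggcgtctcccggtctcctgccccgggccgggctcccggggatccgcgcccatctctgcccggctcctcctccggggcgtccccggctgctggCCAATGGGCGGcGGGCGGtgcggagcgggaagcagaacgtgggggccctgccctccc
Mboat2 (chr12:24831349-24831648, plus strand): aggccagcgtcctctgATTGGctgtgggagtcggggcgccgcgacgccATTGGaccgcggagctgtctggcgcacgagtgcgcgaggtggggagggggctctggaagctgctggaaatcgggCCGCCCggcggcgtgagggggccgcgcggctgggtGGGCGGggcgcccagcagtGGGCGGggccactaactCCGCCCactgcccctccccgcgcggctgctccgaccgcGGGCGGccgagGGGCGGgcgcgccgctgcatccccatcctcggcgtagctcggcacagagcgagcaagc
The windows of Lpcat3 and Mboat2 are set from a start 77 and 720 bases downstream of the start in the deposited table, and those of Acsl4 and Mboat1 from a start 0 and 1 base away. Among the windows not shown, that of Acsl5 is set from a start 1431 bases downstream and the second of Acsl1 from one 19929 bases downstream. A CCAAT box was found 4 times for Lpcat3, 1 time for Mboat1 and 2 times for Mboat2, and not for Acsl4. It did not follow the direction of change over the other members: Fads2, which fell, had 0, and Acsl3 and Acsl5, which were not called, had 1 each, while the 2 windows of Acsl1, also not called, had 0 and 2. Of all 32851 promoters of that length, 37.4% hold it. A GC box was found 6 times for Lpcat3, 3 times for Mboat1, 6 times for Mboat2 and 2 times for Acsl4, and 35.7% of all promoters hold it. The GC box did not follow the direction of change either: Fads2 had 1, Acsl3 had 5, Acsl5 had 0 and the windows of Acsl1 had 7 and 0. The core of the sterol element that SREBP binds (TCACNCCA, either strand) is in 4.36% of all promoters. None of the 4 windows shown held it, nor did that of Fads2. Of the 8 genes with a promoter, only Acsl1 had a match, 1 in its second window. These matches describe the letters in the windows and no binding was measured.

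The desaturase genes fell by different amounts. Fads2, which catalyses the first desaturation towards long polyunsaturated fatty acids, had 12.0, 8.55 and 8.91 FPKM in cyclophosphamide libraries, against 31.0, 31.1 and 28.1 FPKM in untreated ones. The groups stood far apart, and the log2 fold change was -1.62 ± 0.13 (limma, adjusted p = 1.7e-05), with a mean 67.3% lower. Fads1, which acts after it and yields arachidonic acid, had 23.7, 24.7 and 20.4 FPKM in cyclophosphamide libraries, against 43.0, 44.2 and 43.0 FPKM in untreated ones. Its mean was 47.2% lower, and its log2 fold change was -0.92 ± 0.08 (limma, adjusted p = 2.5e-05).

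Scd1, which makes oleic and palmitoleic acid, had 26.3, 18.7 and 20.8 FPKM in cyclophosphamide libraries, against 35.9, 33.5 and 32.7 FPKM in untreated ones. Its groups did not overlap, and its log2 fold change was -0.65 ± 0.12 (limma, adjusted p = 0.0016). Its paralog Scd2, which catalyses the same reaction, was the more abundant stearoyl-CoA desaturase in every library and also fell. Scd2 had 80.0, 73.5 and 68.7 FPKM in cyclophosphamide libraries, against 461, 423 and 448 FPKM in untreated ones, a log2 fold change of -2.58 ± 0.09 (adjusted p = 4.9e-07, limma). The share of Scd1 in the summed FPKM of the Scd genes was 24.7%, 20.3% and 23.2% in cyclophosphamide libraries, against 7.21%, 7.32% and 6.80% in untreated ones. The summed FPKM of these genes was 96.2 ± 9.08 in cyclophosphamide and 479 ± 20.1 in untreated libraries (SD). Of the 50-base stretches in Scd1 transcripts, 4.56% also occur in other genes, chiefly Scd3 and Scd2, so reads there are uncertain.

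Cyclophosphamide replicate 1 was the highest of its group for Acsl3, Lpcat3, Fads2 and Scd1 and the lowest for Acsl1, Acsl4 and Acsl5. Without it the log2 fold changes were -1.77 for Fads2, -0.78 for Scd1 and 0.46 for Acsl4, all past the threshold.

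Ratios within a library do not depend on the scaling between libraries, and 8 were compared, of which 6 changed (limma on the difference of log2(FPKM + 0.1), moderated with all genes, adjusted p under 0.05). An exact permutation test of 3 against 3 libraries cannot give less than 0.10, and it gave 0.10 for those 6. The ratio of Acsl4 to Lpcat3, the synthetase and the acyltransferase that act in turn on polyunsaturated fatty acids, was 2.04, 2.52 and 2.48 in cyclophosphamide libraries, against 0.78, 0.67 and 0.76 in untreated ones. Acsl4 thus stood above Lpcat3 in each cyclophosphamide library and below it in each untreated one, a log2 difference of 1.66 ± 0.10 (limma, adjusted p = 4.9e-06). The ratio of Acsl4 to Acsl3 was 6.72, 11.0 and 9.09 in cyclophosphamide libraries, against 5.67, 4.76 and 6.16 in untreated ones (log2 difference 0.66 ± 0.17, limma, adjusted p = 0.0095). That of Acsl4 to Acsl1 overlapped between the groups, with a log2 difference of 0.26 and a 95% interval from 0.02 to 0.51 (limma, adjusted p = 0.051). It passed the threshold with a pseudocount of 1 (0.29, limma, adjusted p = 0.017), without cyclophosphamide replicate 2 (0.33) and without untreated replicate 3 (0.35).

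Mboat1 fell further than both other acyltransferase genes. The ratio of Lpcat3 to Mboat1 was 25.9, 20.4 and 26.9 in cyclophosphamide libraries, against 7.65, 10.3 and 8.84 in untreated ones, a log2 difference of 1.29 ± 0.14 (limma, adjusted p = 7.7e-05). The ratio of Mboat1 to Mboat2 was 0.21, 0.28 and 0.19 in cyclophosphamide libraries, against 0.63, 0.50 and 0.55 in untreated ones, a log2 difference of -1.18 ± 0.16 (limma, adjusted p = 0.00034). With a pseudocount of 1 these differences were 0.50 and -0.55, both past the threshold. For Lpcat3 over Mboat2 no change was detected, with a log2 difference of 0.12 and a 95% interval from -0.05 to 0.28 (limma, adjusted p = 0.184).

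Among the desaturases, Fads2 fell further than Fads1 and Scd1. The ratio of Fads1 to Fads2 was 1.97, 2.89 and 2.30 in cyclophosphamide libraries, against 1.39, 1.42 and 1.53 in untreated ones (log2 difference 0.69 ± 0.13, limma, adjusted p = 0.0017). The ratio of Scd1 to Fads2 was 2.18, 2.19 and 2.33 in cyclophosphamide libraries, against 1.16, 1.08 and 1.17 in untreated ones. This ratio varied little within each group, and its log2 difference was 0.97 ± 0.06 (limma, adjusted p = 6.8e-06).

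**Figure D4:**
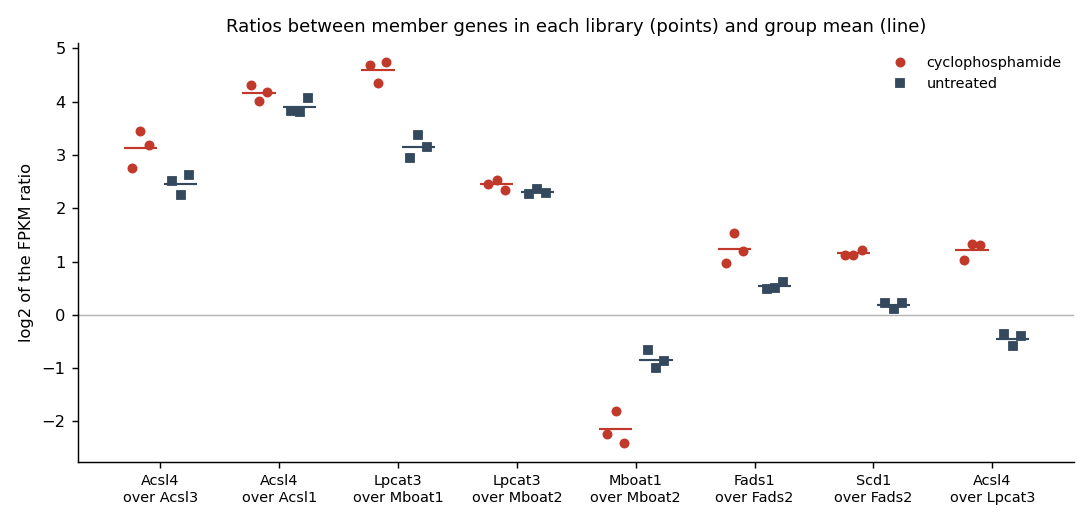
Log2 of the FPKM ratio of each gene pair in each library, cyclophosphamide as circles left of untreated as squares, with a line at each group mean. Acsl4 over Lpcat3 lies above 0 in the cyclophosphamide libraries and below 0 in the untreated ones, and Lpcat3 over Mboat2 overlaps between the groups.

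Other genes of the same steps were read from 8 lists of 109 genes, of which 93 were tested. Of these, 31 were higher and 45 lower, beside 33.1% and 35.8% of all genes, so the number higher is near the background. Of 11 tested acyl-CoA synthetase genes outside the 10, 3 rose and 5 fell, beside 33.1% and 35.8% of all genes. Their median log2 fold change was -0.31. Acsbg1, a synthetase for long chains, was the furthest down at 23.8 ± 6.16 FPKM in cyclophosphamide and 70.4 ± 1.56 in untreated libraries (log2 fold change -1.59 ± 0.16, limma, adjusted p = 5.1e-05). Slc27a1, a fatty acid transport protein with synthetase activity, rose by 0.68 ± 0.13 on the log2 scale, with 11.4 ± 2.04 FPKM in cyclophosphamide and 7.04 ± 0.58 in untreated libraries. Acsm3, a medium-chain synthetase (129 and 62 reads in the same order), rose by 0.83 ± 0.23 but lost its call when no filter was applied (limma, adjusted p = 0.084). For Acsf3, a malonyl-CoA synthetase, the log2 fold change was -1.17 ± 0.18.

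Of 15 tested acyltransferase genes outside the 10, 4 rose and 8 fell (median -0.22), beside 33.1% and 35.8% of all genes. The largest rises were those of Gpat3 and Agpat4, which add acyl chains in the early steps of glycerolipid synthesis and not in remodelling. Agpat4 reached 71.8 ± 4.53 FPKM in cyclophosphamide, against 20.5 ± 0.44 in untreated libraries, a log2 fold change of 1.80 ± 0.07 (adjusted p = 6.5e-07, limma). Gpat3 had 5.95 ± 0.48 FPKM in cyclophosphamide and 1.60 ± 0.07 in untreated libraries, a log2 fold change of 1.83 ± 0.11. Lpcat2, a lysophosphatidylcholine acyltransferase, had a log2 fold change of -1.31 ± 0.13 (2.26 ± 0.30 FPKM in cyclophosphamide and 5.72 ± 0.45 in untreated libraries), and Lclat1, a lysocardiolipin acyltransferase, one of -0.59 ± 0.07.

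Of 18 tested genes of desaturation and elongation outside the 10, 2 rose and 13 fell (median -0.64), beside 33.1% and 35.8% of all genes. Beside Scd2, the gene furthest down was Scd4, with 43 reads in cyclophosphamide and 205 in untreated libraries (log2 fold change -1.85 ± 0.25, and -0.75 with a pseudocount of 1). The 2 that rose were Elovl2, an elongase of polyunsaturated fatty acids with 77 and 35 reads in the same order (0.81 ± 0.19), and Degs1, which makes ceramide (0.32 ± 0.07). Elovl2 lost its call at adjusted p = 0.059 in limma when no filter was applied.

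Genes that release fatty acids were mostly higher. Of 13 tested phospholipase A2 and thioesterase genes 10 rose and 2 fell (median 0.52), beside 33.1% and 35.8% of all genes. Pla2g6, a calcium-independent phospholipase A2, had 17.5 ± 1.57 FPKM in cyclophosphamide and 5.14 ± 0.30 in untreated libraries, a log2 fold change of 1.75 ± 0.09 (adjusted p = 2.5e-06, limma). Pla2g4a, the cytosolic phospholipase A2 that frees arachidonic acid, which was picked out after its values were seen, rose by 1.65 ± 0.11. Acot2, a mitochondrial acyl-CoA thioesterase, rose by 3.59 ± 0.08, with 77.2 ± 4.29 FPKM in cyclophosphamide and 6.31 ± 0.57 in untreated libraries. The thioesterase genes Acot7 (-1.58 ± 0.18) and Acot9 (-0.86 ± 0.08) fell.

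Of 5 tested genes of lipid peroxidation 4 rose and 0 fell, beside 33.1% and 35.8% of all genes. Alox5, Aloxe3 and Alox12 passed the filter on low values only through their reads in the cyclophosphamide libraries. This count and the list's median are thus tilted towards higher values. Por and Cyb5r1 passed in both groups. The median of 1.62 is the value of Aloxe3, a low gene. Among those not tested, Alox15 held 9 reads in cyclophosphamide and 0 in untreated libraries, and Alox8 held 1 and 11. Cyb5r1 and Por encode flavoenzymes that pass electrons from NADPH or NADH and are known to promote lipid peroxidation. Cyb5r1 had 41.5, 65.2 and 55 FPKM in cyclophosphamide libraries, against 7.76, 7.52 and 8.67 FPKM in untreated ones (log2 fold change 2.72 ± 0.15, limma, adjusted p = 3.6e-06). Por had 101, 91.9 and 94.5 FPKM in cyclophosphamide libraries, against 48.0, 54.7 and 49.2 FPKM in untreated ones (0.92 ± 0.08, limma, adjusted p = 1.9e-05). The lipoxygenases stayed low. Alox5, which begins leukotriene synthesis, held 195 reads in cyclophosphamide and 7 in untreated libraries, with a log2 fold change of 2.93 ± 0.20 that ranged from 0.89 with a pseudocount of 1 to 4.61 in limma-voom. Aloxe3, an epidermal lipoxygenase, held 140 and 22 reads in the same order (1.62 ± 0.21, and 0.41 to 2.56 in the same alternatives), and Alox12 missed the threshold at 0.37 ± 0.21 (limma, adjusted p = 0.156). Macrophages are rich in Alox5. The summed FPKM of 9 macrophage markers was 8.18 to 9.40 in cyclophosphamide and 3.54 to 4.18 in untreated libraries. Most of that sum was the 2 tested, Csf1r (1.93 ± 0.11) and Cd68 (1.08 ± 0.14), which were higher. All the others went the other way on few reads. C1qa held 2 reads in cyclophosphamide and 10 in untreated libraries, C1qb 1 and 8, and C1qc 4 and 16. Adgre1 held 1 and 3 in the same order, Tyrobp 3 and 7, Fcer1g 10 and 13, and Ptprc 7 and 9. The part of macrophages in the rise of Alox5 was not tested.

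**Figure D5:**
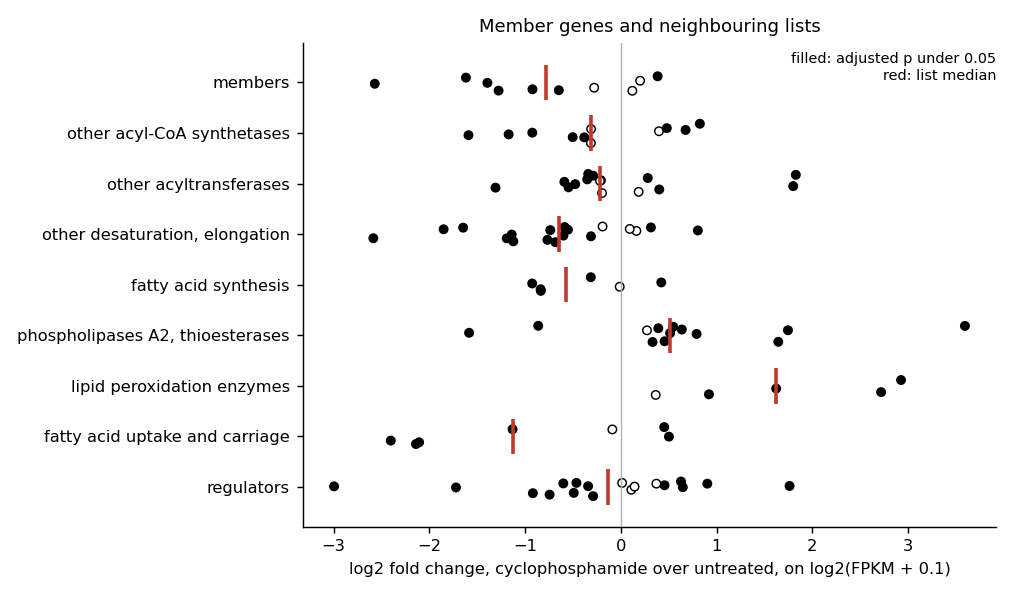
Log2 fold change (cyclophosphamide over untreated) of every tested gene in the 10 members and the 8 lists, filled where the adjusted p was under 0.05, with a red line at each median. The medians of lipid peroxidation enzymes (1.62, the value of the low gene Aloxe3) and of phospholipases A2 with thioesterases (0.52) lie right of 0. Those of the members (-0.78) and of the other desaturation and elongation genes (-0.64) lie left of it. The peroxidation genes Alox5, Aloxe3 and Alox12 were tested only through their reads in the cyclophosphamide libraries.

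Genes of regulators known to act on these enzymes moved in both directions, with a median of -0.14. Of 18 tested, 5 were higher and 9 lower, beside 33.1% and 35.8% of all genes. Srebf1, whose product drives desaturase genes, fell, with 19.8 ± 1.42 FPKM in cyclophosphamide and 27.4 ± 1.26 in untreated libraries (log2 fold change -0.46 ± 0.07, limma, adjusted p = 0.00065). Nr1h2, which encodes the liver X receptor beta, known to induce Lpcat3 and Scd1, rose by 0.46 ± 0.06, and Nr1h3, the alpha form, missed the threshold at 0.37 ± 0.23 on 136 reads in cyclophosphamide and 102 in untreated libraries (limma, adjusted p = 0.183). Rxra, the partner of these receptors, and Ppard, a fatty acid sensor, rose by 0.90 ± 0.10 and 1.76 ± 0.10.

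In human cancer cells, an oestrogen receptor is known to induce MBOAT1, and there are 2 receptor genes, Esr1 and Esr2. Esr2, the main oestrogen receptor of granulosa cells, had 3.32, 2.39 and 3.25 FPKM in cyclophosphamide libraries, against 23.8, 23.4 and 25.5 FPKM in untreated ones (log2 fold change -2.99 ± 0.13, limma, adjusted p = 1.2e-06). Esr1 was low in both groups, with 117 reads in cyclophosphamide and 542 in untreated libraries (-1.72 ± 0.20, and -0.61 with a pseudocount of 1). Mboat1, Esr2 and Esr1 were all lower in the cyclophosphamide libraries, as were 35.8% of all genes tested. A link of Mboat1 to Esr2 or to Esr1 was not tested, nor which of the 2 receptors would act on it.

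In the coordinates of the deposited table, Mboat1 (ENSMUSG00000038732) lies at 30136489 to 30246717 on chromosome 13, Lpcat3 (ENSMUSG00000004270) at 124663027 to 124704418 on chromosome 6 and Acsl4 (ENSMUSG00000031278) at 142317993 to 142390535 on chromosome X. Fads2 and Fads1 are neighbours on chromosome 19, from 10064164 to 10101503 and from 10182888 to 10196870, on opposite strands. All 10 genes are annotated as protein-coding. Lpcat3 shares 334 exon bases with Emg1 on the other strand, which held 3525 reads in cyclophosphamide and 2429 in untreated libraries, and Acsl5 shares 404 with Zdhhc6 on the other strand. Acsl3 shares 244 with Utp14b on its own strand, and Utp14b held 164 reads in cyclophosphamide and 374 in untreated libraries. Whether counting used strand is not stated here, so reads in these stretches are uncertain.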

How the data were processed

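The values used are FPKM that the authors deposited in a table titled as raw counts, with 3 cyclophosphamide and 3 untreated libraries. Multiplied by gene length, each non-zero value was a whole multiple of 1 step per library (tolerance 0.01 of a read), and these multiples are the reads quoted. The submitters' processing notes name CASAVA, HISAT2 (2.0.5) and GRCm39. How reads were counted and scaled is not stated there. Starts and ends equalled GENCODE M21 (GRCm38) for 98.3% of 54495 shared IDs, so coordinates are read as GRCm38.

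Groups follow the titles and the treatment label. Genes with 10 reads in 3 or more libraries and a sum of 15 entered limma (3.58.1, R 4.3.3), two-sided with level-dependent prior variance on log2(FPKM + 0.1), with Benjamini-Hochberg adjustment over 14885 genes. This scale understates changes of low genes. The variance prior of the ratios is that of single genes. The fit was also run on simulated reads in which far fewer genes changed than here, so that run does not show how well it does on these data. No label says that replicates were separate cultures, so the p-values reflect only how far these libraries scatter, which may be technical.

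The members and lists were chosen with earlier results of these data known. From each list the up to 2 called genes furthest in each direction are named, with Scd2, Srebf1, Nr1h2, Nr1h3, Esr1 and Esr2 in any case; 1 further gene of that rule is not reported here. Por, Aloxe3, Alox12, Pla2g4a, Fasn, Cd36, Csf1r, Cd68, Foxl2, Inha, Fshr, Col1a1, Col3a1 and Gdf9 were named after their values were seen. Alternatives changed the pseudocount, scaling, filter, replicate block or test (limma-voom on the recovered reads), or left out each library in turn.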

Additional observations from a re-analysis of the deposited data

How the results depend on the processing

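Over 16 alternatives (6 of them leaving out a library), Acsl4, Lpcat3, Mboat1, Mboat2, Fads1, Fads2 and Scd1 kept their direction and stayed past the threshold. Their log2 fold changes without any 1 library ranged from 0.31 to 0.46 for Acsl4, -1.31 to -1.24 for Lpcat3, -2.69 to -2.48 for Mboat1, -1.43 to -1.34 for Mboat2, -0.98 to -0.84 for Fads1, -1.77 to -1.53 for Fads2 and -0.78 to -0.54 for Scd1. Acsl5 passed the threshold with scaling to total reads (0.25), by the median of ratios (0.23), by the upper quartile over all genes with a read (0.30, chosen after seeing the data) and in limma-voom (0.23), so that 2 members were higher under each of these. With scaling by the upper quartile of the genes tested it had 0.12 (limma, adjusted p = 0.245), and its values without 1 library ranged from 0.14 to 0.25. Acsl3 passed with that scaling (-0.36), and ranged from -0.39 to -0.17 without 1 library. Acsl1 ranged from -0.00097 to 0.26 without 1 library, where its sign turned once. The count of members called higher was 1 to 2 over the fits without 1 library. The cause was not tested. Acsl4 over Acsl1 passed with a pseudocount of 1 (0.29) and ranged from 0.20 to 0.35 without 1 library, and Lpcat3 over Mboat2 turned to -0.049 with a pseudocount of 1. Fasn, which was not called, turned positive with scaling to total reads (0.036), by the median of ratios (0.011), by the upper quartile over all genes with a read (0.083) and in limma-voom (0.011), and ranged from -0.048 to 0.013 without 1 library.

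Same-numbered libraries showed no clear shared deviation (correlations of -0.08, 0.005 and -0.033, against -0.087 to 0.12 for differently numbered ones). At 3 libraries per group this cannot tell whether same-numbered libraries were handled together. With the replicate number as a block, no call of a member or ratio changed, Acsl4 kept a log2 fold change of 0.39, and 4772 genes were higher and 5165 lower, against 4932 and 5325 without it. Depth limits the genes for which few reads are given, such as Alox12, Elovl2, Aloxe3, Acsm3, Alox5, Nr1h3 and Scd4, and Mboat1 among the members.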

Other observations

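Genes that bring fatty acids to the enzymes above or make them anew were mostly lower. Of 7 tested genes of fatty acid uptake and carriage, 4 fell and 2 rose, beside 35.8% and 33.1% of all genes. Their median log2 fold change was -1.13. Cd36, a fatty acid translocase, had 1.84 ± 0.14 FPKM in cyclophosphamide and 8.24 ± 0.61 in untreated libraries (SD, log2 fold change -2.11 ± 0.11 SE, limma, adjusted p = 2.4e-06). The fatty acid binding protein genes Fabp5 and Fabp3 had log2 fold changes of -2.40 ± 0.32 and -2.14 ± 0.13, with 2.13 ± 1.22 and 2.85 ± 0.22 FPKM in cyclophosphamide libraries, against 10.6 ± 0.36 and 13.0 ± 2.10 FPKM in untreated ones. The acyl-CoA binding domain genes Acbd3 and Acbd6 rose by 0.50 ± 0.11 and 0.45 ± 0.08.

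Of 6 tested genes of fatty acid synthesis, 4 fell and 1 rose (median -0.57), beside 35.8% and 33.1% of all genes. The acetyl-CoA carboxylase genes Acaca and Acacb had log2 fold changes of -0.84 ± 0.13 and -0.93 ± 0.12, with 3.01 ± 0.47 and 1.53 ± 0.12 FPKM in cyclophosphamide libraries, against 5.41 ± 0.21 and 2.99 ± 0.14 FPKM in untreated ones. Mcat, which serves mitochondrial fatty acid synthesis, rose by 0.42 ± 0.07. Fasn, the fatty acid synthase gene, had 37.3 ± 1.67 FPKM in cyclophosphamide and 37.6 ± 1.19 in untreated libraries (log2 fold change -0.01 ± 0.06, limma, adjusted p = 0.879). Adipocyte markers were near 0 in all libraries, with a summed FPKM of at most 0.05 over 5 genes in cyclophosphamide and 0.01 in untreated libraries.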
